A study of Mus musculus with 18 samples.

Results

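A set of 8 lysosomal protease genes was followed in sorted leukemia stem cells: Ctsh, which encodes cathepsin H, and 7 further cathepsin genes, Ctsa, Ctsb, Ctsc, Ctsd, Ctsl, Ctss and Ctsz. They were taken by gene symbol from the deposited table, which makes 8 of 54347 genes. The choice was made with their measured values known: Ctsh was selected on its difference between the groups and the other cathepsins as its relatives, so the members' own differences are given as a description, with no p-value, and the 1 count of calls among them is printed only beside that of all genes. The libraries came from 5 Prx1-Cxcl12-mutant mice (MUT, numbered 6, 7, 8, 10 and 12) and 4 Prx1-Cxcl12-wild type mice (WT, numbered 1 to 4). All were C57BL/6JRj mice sampled at day 30 after leukemia had been induced, and 7000 leukemia stem cells per mouse had been sorted from the bone marrow. Each mouse gave 2 technical libraries of 3' ends of polyadenylated RNA, 18 libraries in all, and both libraries of a mouse were summed. The genotype label joins Cxcl12, the chemokine with which marrow stroma retains blood-forming cells, to Prx1, a promoter active in limb mesenchyme and in the marrow stromal cells that descend from it. The leukemia cells are not the cells in which that promoter is known to act. The sources used here do not give the allele design, the leukemia driver, the sorting markers, or the sex and age of the mice.

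Cathepsins are proteases of the lysosome, the acidic compartment in which cells break down proteins delivered by endocytosis and autophagy. They are made as inactive precursors, tagged with mannose 6-phosphate in the Golgi, carried to the lysosome by receptors for that tag, and activated there at low pH. Most are papain-like cysteine proteases (B, C, H, L, S and Z), whereas D is an aspartic protease and A a serine carboxypeptidase. In myeloid cells they degrade taken-up protein, trim antigens and, in the case of cathepsin C, activate the serine proteases of the granules.

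The CACGTG hexamer is shown first because it is the core of the element that the TFEB family of transcription factors recognises in lysosomal genes. RefSeq promoters on GRCm38.p6 were available for 6 of the 8 genes (Ctsa, with 2 entries, Ctsc, Ctsd, Ctsl, Ctss and Ctsz). The 250 bases before each start were searched on both strands. The hexamer, in capitals, was found in 3 of the 7 entries and in 6.02% of all 32851 entries. These 3 were the entries of Ctsd and Ctsl and 1 of the 2 of Ctsa. The other Ctsa entry, chr2:164832622-164832921, spans the gene start given below and did not hold the hexamer. The start named for each window is that of its RefSeq entry. The windows of Ctsa and Ctsl and the second of Ctsd lie within the gene coordinates given below. All windows read 5' to 3' on the gene's strand.
Ctsa, chr2:164833749-164833772, plus strand, 12 bases before the start: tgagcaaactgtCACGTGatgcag
Ctsd, chr7:142388055-142388077, minus strand, 245 bases before the start: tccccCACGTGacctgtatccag
Ctsd, chr7:142387908-142387937, minus strand, 98 bases before the start: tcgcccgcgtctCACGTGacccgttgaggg
Ctsl, chr13:64370739-64370768, minus strand, 236 bases before the start: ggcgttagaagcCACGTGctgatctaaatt
GGAAGT, a core of sites for ETS factors such as the myeloid factor PU.1, was in the promoters of 2 genes, Ctsa and Ctsc, and in 19.7% of all entries. TATAAA was in 1, that of Ctss, and in 12.4% of all entries. None of these matches overlapped another motif. A match describes the letters only.

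All 8 genes were detected in every mouse and passed the filter on low counts, which 12973 genes passed. Levels are in CPM, a gene's share of all counts of the mouse on a common scale. They come from 3' ends and are not divided by transcript length. By mean CPM over the 9 mice the order was Ctsb at 247, Ctsa at 200.1, Ctsd at 198, Ctsz at 112, Ctsh at 111, Ctsc at 21.5, Ctsl at 15.5 and Ctss at 11.4. Ctsb, Ctsa and Ctsd lay above Ctsz and Ctsh in each mouse, and these 5 lay above Ctsc, Ctsl and Ctss in each mouse. Of neighbours in this order, Ctsa and Ctsd overlapped in both groups, as did Ctsl and Ctss. Ctsb and Ctsa, and likewise Ctsc and Ctsl, overlapped in MUT mice and not in WT mice. The middle pair changed places with genotype. In MUT mice Ctsz was at 109, 90.1, 134, 113 and 109 CPM and Ctsh at 103, 90.0, 74.2, 69.3 and 81.4 CPM (mice 6, 7, 8, 10 and 12), Ctsz above Ctsh in each mouse, if only just in mouse 7. In WT mice Ctsz was at 108, 112, 123 and 109.7 CPM and Ctsh at 131, 143, 138 and 167 CPM (mice 1 to 4), Ctsh above Ctsz in each mouse.

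**Figure D1:**
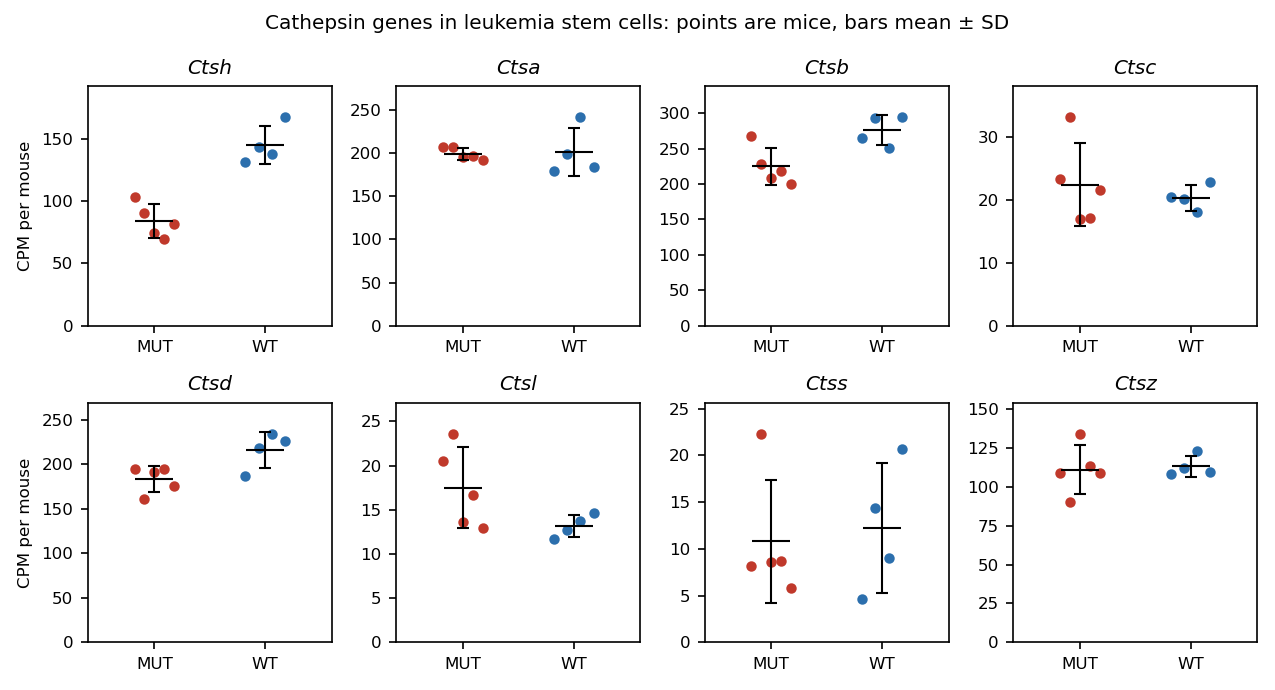
Level of each cathepsin gene in CPM (vertical axis, starting at 0) in 5 MUT mice (red, left) and 4 WT mice (blue, right); points are mice, and bars give the mean ± SD. The groups are apart for Ctsh, at 69.3 to 103 CPM in MUT and 131 to 167 CPM in WT, and overlap for the other 7 genes.

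Cathepsin H removes single residues from the amino end of proteins and was the gene on which the set was built. Its mean was 83.7 ± 13.5 CPM in MUT mice (SD, n = 5) and 145 ± 15.4 CPM in WT mice (SD, n = 4). The highest MUT mouse, at 103 CPM, lay below the lowest WT mouse, at 131 CPM. The fitted log2 fold change, MUT over WT, was -0.79 (SE 0.12), which puts the MUT level at 57.8% of the WT level and at percentile 1.1 of the fold changes of all tested genes. These levels rested on 1276 to 2242 counts per MUT mouse and 1660 to 2812 counts per WT mouse, far above the floor of 3 counts. Ctsh (ENSMUSG00000032359) lies on chromosome 9 of GRCm38, 90054152 to 90076089 on the plus strand, and overlaps no other annotated gene.

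Both technical libraries of a mouse gave nearly the same Ctsh level. The 10 MUT libraries ranged from 63.8 to 105 CPM and the 8 WT libraries from 129 to 172 CPM, so no library of one group reached the other. Within a mouse the higher library exceeded the lower by a median ratio of 1.06, and by at most 1.19, in MUT mouse 10 (63.8 and 75.7 CPM). In bulk RNA, fewer cells that express a gene and less of its RNA per cell cannot be told apart.

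**Figure D2:**
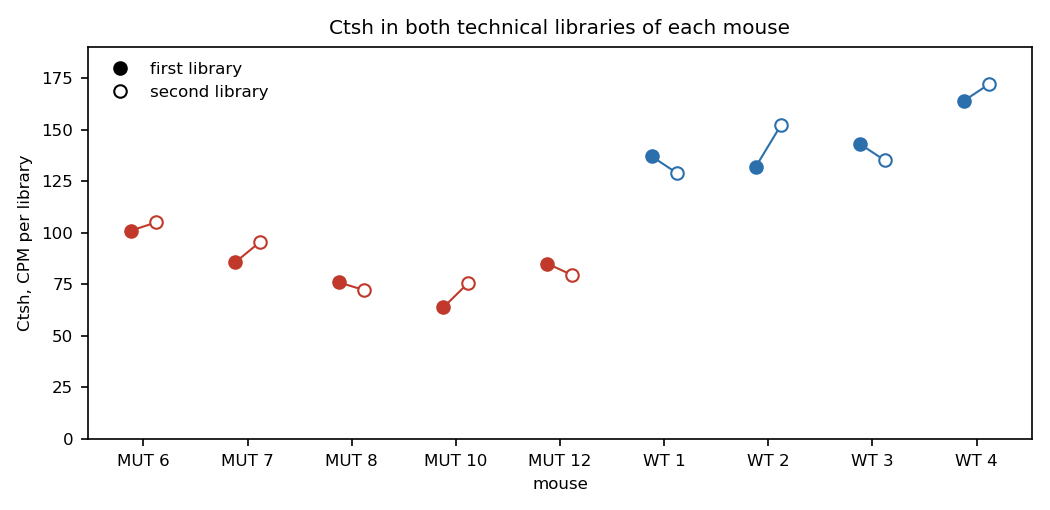
Ctsh level in CPM (vertical axis) in the first (filled) and second (open) technical library of each mouse, MUT in red and WT in blue. All 10 MUT libraries lie at or below 105 CPM and all 8 WT libraries at or above 129 CPM.

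Of the other cathepsins that cut residues from chain ends, Ctsb encodes cathepsin B, which acts as a carboxydipeptidase and also cuts within chains. It had 267, 228, 209, 219 and 200.2 CPM in MUT mice and 265, 293, 251 and 294 CPM in WT mice. Only MUT mouse 6 reached the WT range. The means were 225 ± 25.8 CPM in MUT and 276 ± 21.4 CPM in WT (SD, n = 5 and 4), with a log2 fold change of -0.30 (SE 0.10). Ctsb (ENSMUSG00000021939, chromosome 14, 63122462 to 63145923, plus strand) overlaps Fdft1 on the opposite strand, a gene at 12.4 to 21 CPM in MUT and 14.4 to 18.3 CPM in WT.

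Ctsz encodes cathepsin Z, also named X, a carboxypeptidase that removes single residues. Its per-mouse levels above averaged 111 ± 15.5 CPM in MUT and 113 ± 6.89 CPM in WT, and its log2 fold change was -0.03 (SE 0.11). The sign turned without MUT mouse 7 (0.04) or WT mouse 3 (0.02). The WT mice lay within the range of the MUT mice. Ctsz (ENSMUSG00000016256, chromosome 2, 174427493 to 174439039, minus strand) overlaps Nelfcd on the opposite strand, at 39.5 to 49.8 CPM in MUT and 36.0 to 45.6 CPM in WT. The sources used here do not say whether counting used the strand, so reads in such an overlap could belong to either gene.

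Ctsc encodes the dipeptidyl peptidase that activates neutrophil elastase, cathepsin G and proteinase 3. It had 23.3, 33.1, 17.0, 17.1 and 21.5 CPM in MUT mice and 20.4, 20.1, 18 and 22.9 CPM in WT mice. The MUT mice spread more, with a coefficient of variation of 29.4% in MUT and 9.84% in WT, and mouse 7 was the highest. The log2 fold change of 0.14 (SE 0.18) was -0.04 without MUT mouse 7. Ctsc (ENSMUSG00000030560) lies on chromosome 7, 88278085 to 88310888, plus strand.

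Ctsl and Ctss encode cathepsins L and S, endopeptidases that degrade protein in the lysosome and cut the invariant chain of class II molecules. Ctsl had 20.5, 23.6, 13.6, 16.7 and 12.9 CPM in MUT mice and 11.7, 12.7, 13.7 and 14.6 CPM in WT mice. MUT mice 6, 7 and 10 lay above all WT mice, and mice 8 and 12 among them. Its log2 fold change of 0.41 (SE 0.18) was the highest of the 8 genes. MUT mouse 7 was uneven between its libraries, at 28.9 CPM in the first and 15.7 CPM in the second, and without the first library the log2 fold change was 0.27. Among second libraries alone it was 0.24, and without MUT mouse 7 it was 0.27. Ctsl (ENSMUSG00000021477) lies on chromosome 13, 64359337 to 64370890, minus strand.

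Ctss was the lowest and most variable member. It had 8.21, 22.3, 8.64, 8.75 and 5.87 CPM in MUT mice and 4.66, 14.4, 8.99 and 20.7 CPM in WT mice. Both groups held a mouse above 20 CPM and one below 6 CPM, and the coefficient of variation was 61.0% in MUT and 57.0% in WT. The libraries of the high MUT mouse, mouse 7, gave 22.4 and 22.0 CPM, which differ far less than the mice do. The log2 fold change of -0.18 (SE 0.42) was -0.64 without MUT mouse 7, -0.45 without WT mouse 1 and 0.20 without WT mouse 4. With the total count as a covariate it was -1.31. Ctss (ENSMUSG00000038642) lies on chromosome 3, 95526786 to 95556403, plus strand.

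Ctsd encodes cathepsin D, the main aspartic endopeptidase of the lysosome. It had 195, 161, 191, 194 and 175 CPM in MUT mice and 187, 218, 234 and 226 CPM in WT mice. Only WT mouse 1 lay within the MUT range. The means were 183 ± 14.7 CPM in MUT and 216 ± 20.5 CPM in WT, with a log2 fold change of -0.24 (SE 0.10). Ctsd (ENSMUSG00000007891) lies on chromosome 7, 142375911 to 142388038, minus strand. The annotated genes that overlap Ctsd and Ctsl had 0 counts. Hmgb1-ps5, which overlaps Ctss on the same strand, and Pltp, which overlaps Ctsa on the opposite strand, had at most 1 count in a mouse. Gm26522 overlaps Ctsc on the opposite strand, and no level was available for it.

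Ctsa encodes the carboxypeptidase also called protective protein, which stabilises beta-galactosidase and the sialidase Neu1 in a complex. It had 207, 207, 195, 196 and 192 CPM in MUT mice and 179, 199, 241 and 184 CPM in WT mice. All MUT mice lay within the WT range, and the coefficient of variation was 3.49% in MUT and 14.0% in WT. The log2 fold change of -0.01 (SE 0.10) turned to 0.09 without WT mouse 3, the mouse with the highest level. Ctsa (ENSMUSG00000017760, chromosome 2, 164832873 to 164841032, plus strand) overlaps Neurl2 on the opposite strand, at 5.66 to 7.33 CPM in MUT and 5.27 to 6.59 CPM in WT.

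Of the 8 genes, 6 had a log2 fold change below 0 and 2, Ctsc and Ctsl, above 0, with a median of -0.10. Over all 12973 tested genes 48.3% were below 0 and the median was 0.01. Ctsh was the 1 gene of the 8 with every MUT mouse below every WT mouse, a pattern shown by 2.13% of tested genes. It was also the 1 gene of the 8 at an edgeR adjusted p under 0.05, a call made for 9 tested genes (0.0694%), 6 of them lower in MUT (0.0462%). At this threshold the call of Ctsh was made in 5 of 18 other settings, and, of the 9 fits that each left out 1 mouse, in 1, that without MUT mouse 6. Since the set was chosen on this contrast, nothing is read from these counts.

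The make-up of the summed cathepsin level followed from these values. The 8 genes together had 853 ± 50.2 CPM in MUT mice (798 to 934) and 997 ± 60.8 CPM in WT mice (907 to 1039), and WT mouse 1 lay below MUT mouse 6. Ctsh contributed 9.78 ± 1.18% of the sum in MUT (8.31 to 11.1%) and 14.5 ± 1.09% in WT (13.4 to 16.0%). Without Ctsh the sum was 769 ± 40.9 CPM in MUT (716 to 831) and 852 ± 51.8 CPM in WT (775 to 889.6), and the groups overlapped. Relative to Ctsb, the most abundant member, Ctsh stood at a ratio of 0.372 ± 0.0366 in MUT (0.316 to 0.406) and 0.525 ± 0.0392 in WT (0.489 to 0.566), without overlap. Ctsl made up 2.04 ± 0.478% of the sum in MUT (1.61 to 2.76%) and 1.32 ± 0.064% in WT (1.25 to 1.40%). Its shares did not overlap either, although its levels did. The sum and the ratio to Ctsb both include Ctsh, on whose difference the set was chosen, and a lower Ctsh by itself raises every other share. Nothing is therefore read from the sum, the shares of Ctsh and Ctsl, or the ratio.

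**Figure D3:**
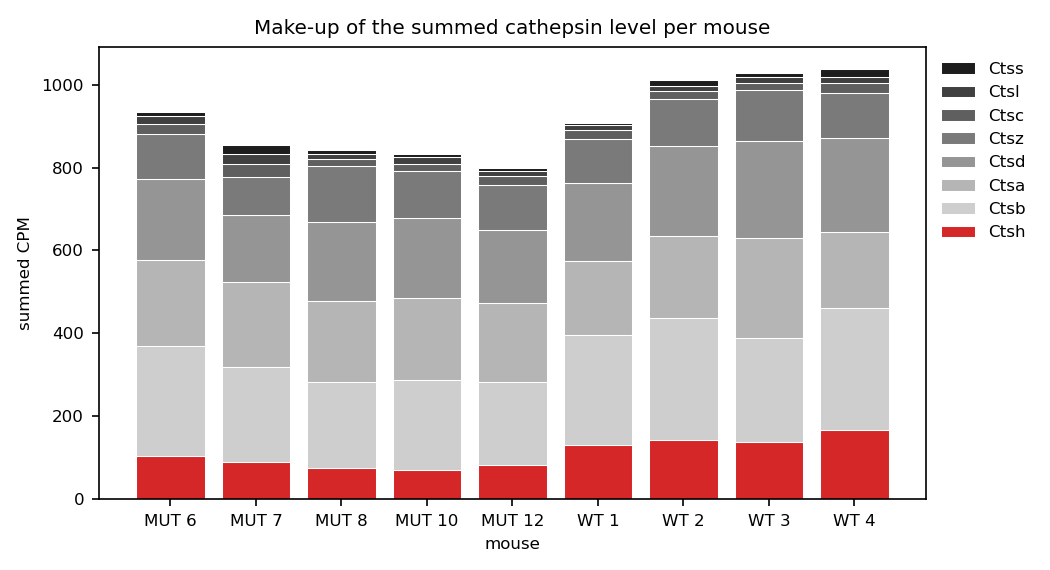
Summed level of the 8 cathepsin genes in CPM (vertical axis, from 0) in each mouse, MUT mice on the left and WT mice on the right; colours mark the genes, Ctsh in red at the base. Ctsh is 8.31 to 11.1% of the bar in MUT mice and 13.4 to 16.0% in WT mice.

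Deviations from the group means were compared with those of Ctsh over the 9 mice, as a description, since each mouse's genes share its libraries and depth. Pearson's r was 0.75 for Ctsb, 0.68 for Ctsc, 0.64 for Ctsl and 0.47 for Ctss. It was 0.09 for Ctsa, 0.08 for Ctsd and -0.44 for Ctsz. Within a group, mice with more Ctsh tended to have more Ctsb, Ctsc and Ctsl. With 9 mice these are values for these animals only.

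Over all genes with a mean of at least 20 CPM, 5323 besides the members, those whose log2(CPM + 1) followed Ctsh most closely over the 9 mice were Dennd5a (Pearson's r = 0.939), Derl1 (0.937), Itga1 (0.928), Tnrc18 (0.920) and Ccdc125 (0.913). Spearman's rho lay between 0.833 for Ccdc125 and 0.950 for Derl1. Part of each r is the difference between the groups; for deviations from the group means r was 0.80 for Derl1, 0.79 for Tnrc18, 0.60 for Ccdc125, 0.57 for Dennd5a and 0.48 for Itga1. Dennd5a encodes an exchange factor for Rab GTPases, Derl1 a membrane protein of the pathway that removes misfolded protein from the endoplasmic reticulum, and Itga1 the collagen receptor subunit integrin alpha 1. Their levels were 17.4 ± 1.32 CPM in MUT and 24.6 ± 1.5 CPM in WT for Dennd5a, with a log2 fold change of -0.50. For Derl1 they were 117 ± 5.13 CPM in MUT and 132 ± 6.23 CPM in WT, with a log2 fold change of -0.17. None of the 5 had a log2 fold change as low as that of Ctsh: the lowest was that of Itga1, at -0.69.

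**Figure D4:**
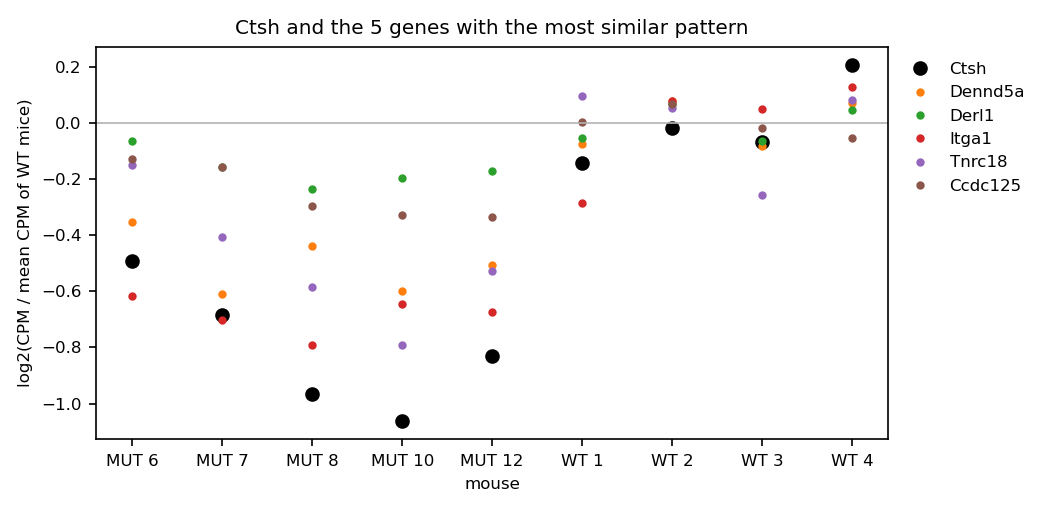
Level of Ctsh (black) and of the 5 genes with the most similar pattern (colours) in each mouse, as the log2 ratio to the WT mean (vertical axis), MUT mice on the left and WT mice on the right. Ctsh reaches the lowest values in MUT mice 8, 10 and 12.

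Genes that act with the cathepsins were taken from 9 lists by function, 77 genes in all, of which 64 passed the filter. By edgeR's quasi-likelihood test 0 of the 64 were called at an adjusted p under 0.05, against 0.0694% of all tested genes; DESeq2 and limma-voom also called 0, and DESeq2 called 0.612% of all genes it tested. At an unadjusted p under 0.05 there were 10 of the 64, 3 higher and 7 lower in MUT, against 9.85% of all tested genes. In total 37 were below 0 and 27 above, with a median log2 fold change of -0.03, and the lowest adjusted p was 0.307. The adjusted p-values below are from edgeR over all tested genes.

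Of the other cathepsin genes 4 of 6 were tested, 2 of them below 0, with a median of -0.11. Ctsf, a cysteine cathepsin, was at 1.73 ± 0.457 CPM in MUT and 3.00 ± 0.703 CPM in WT (SD, n = 5 and 4; log2 fold change -0.78, SE 0.25, adjusted p = 0.345), a value as low as that of Ctsh at a far lower level. Ctse, an aspartic cathepsin named after its values were seen, was at 119.7 ± 23.1 CPM in MUT and 154 ± 30.3 CPM in WT (-0.36, SE 0.15, adjusted p = 0.465). Ctsk had 0 to 3 counts in MUT and 0 to 2 in WT, and Ctsw 0 to 1 in MUT and 0 to 2 in WT, at or under the floor of 3 counts.

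Of the serine proteases that cathepsin C activates 3 of 6 were tested, Ctsg, Elane and Prtn3, all above 0, and Gzma, Gzmb and Cma1 were not tested. Ctsg, cathepsin G, was at 4626, 2673, 6156, 6450 and 2913 CPM in MUT mice and 2277, 2964, 3265 and 3482 CPM in WT mice. The MUT mice split, with mice 6, 8 and 10 above all WT mice and mice 7 and 12 among them (0.61, SE 0.25, adjusted p = 0.448). Elane, neutrophil elastase, was at 2556 ± 587 CPM in MUT and 2156 ± 181 CPM in WT (0.25, SE 0.15, adjusted p = 0.612). Mouse 7, highest for Ctsc among MUT mice, was lowest for both Ctsg (2673 CPM) and Elane (2000 CPM). Of the complex partners of cathepsin A all 3 were below 0, with a median of -0.11: Glb1, beta-galactosidase, was at 32.5 ± 4.35 CPM in MUT and 38.8 ± 2.89 CPM in WT (-0.26, SE 0.11, adjusted p = 0.461), and Neu1 was at 167 ± 15.3 CPM in MUT and 180.4 ± 16.4 CPM in WT (-0.11, SE 0.10, adjusted p = 0.737).

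Among inhibitors of cysteine proteases 6 of 10 were tested, 3 of them below 0, with a median of 0.01. Cst3, cystatin C, was at 557 ± 44.9 CPM in MUT and 605 ± 43.8 CPM in WT (-0.12, SE 0.09, adjusted p = 0.690). Serpina3g varied widely, from 5.85 to 87.4 CPM in MUT and from 2.37 to 32.8 CPM in WT (0.93, SE 0.77, adjusted p = 0.713). In the class II pathway, where cathepsins S and L cut the invariant chain, the invariant chain gene Cd74 itself had 3 to 24 counts in MUT and 0 to 12 in WT and was not tested. The 4 of 7 genes tested had a median of -0.03; H2-DMa, a chain of the peptide exchanger, was at 160 ± 21.2 CPM in MUT and 149 ± 28.9 CPM in WT (0.10, SE 0.14, adjusted p = 0.837), and H2-DMb1 at 40.3 ± 5.35 CPM in MUT and 43.3 ± 3.43 CPM in WT (-0.11, SE 0.11, adjusted p = 0.777).

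The lists for sorting, acidification, control and other contents of the lysosome held no called gene. All 9 mannose 6-phosphate sorting genes were tested, 6 of them below 0, with a median of 0.00: Gnptg, a subunit of the enzyme that makes the tag, had a log2 fold change of -0.21 (SE 0.09, adjusted p = 0.467) and the adaptor gene Gga2 of 0.19 (SE 0.09, adjusted p = 0.503). The 15 proton pump genes had 8 below 0 and a median of -0.01, with Atp6ap1 at -0.27 (SE 0.17, adjusted p = 0.620) and Tcirg1 at -0.15 (SE 0.12, adjusted p = 0.697). The 6 genes of the TFEB family and lysosomal signalling had 3 below 0 and a median of 0.00, with the calcium channel gene Mcoln1 at -0.23 (SE 0.11, adjusted p = 0.507) and Tfec at 0.41 (SE 0.19, adjusted p = 0.507). Of 16 other hydrolases and carriers 15 were tested, 10 of them below 0, with a median of -0.03. Man2b1, lysosomal alpha-mannosidase, was the 1 gene of the 64 whose groups did not overlap, against 2.13% of tested genes with all MUT mice below all WT mice. It had 378, 258, 334, 356 and 288 CPM in MUT mice and 410.3, 434, 497 and 394 CPM in WT mice (-0.43, SE 0.12, adjusted p = 0.307).

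**Figure D5:**
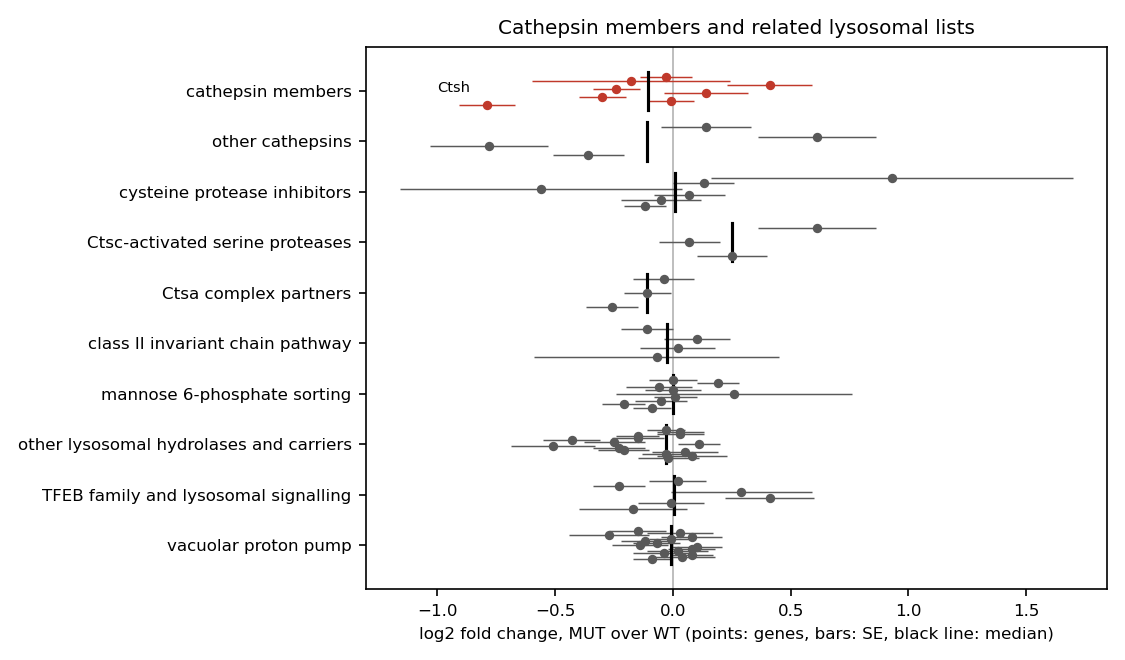
Log2 fold change, MUT over WT (horizontal axis), of the 8 cathepsin genes (red, top row) and of the tested genes of 9 related lists (grey, 1 row a list); points are genes, bars their SE, and black lines the medians. Ctsh, on whose difference the set was chosen, is at -0.79, and the median of its own row is at -0.10. Ctsf, in the row of other cathepsins, is at -0.78.

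Markers of other cells were read beside Ctsh, which mature myeloid cells also express. Leukemic progenitor markers were all 7 detected and tested, 6 of them below 0 with a median of -0.23, and 0 called. Kit, the stem cell factor receptor, was at 19.0 ± 2.45 CPM in MUT and 25.6 ± 1.99 CPM in WT without overlap (-0.43, SE 0.11, adjusted p = 0.254). The list summed to 1123 to 2512 CPM in MUT and 1444 to 1616 CPM in WT. Its marker with the highest level in each mouse was Mpo, myeloperoxidase, at 437 to 1962 CPM in MUT and 707 to 926 CPM in WT. Monocyte and macrophage markers summed to 766 to 1631 CPM in MUT and 783 to 1725 CPM in WT. Most of this sum was Ly6c2, at 1132 ± 296 CPM in MUT and 990 ± 344 CPM in WT (log2 fold change 0.19). Of these 9 markers 8 were tested, 6 of them below 0 with a median of -0.45, and 0 called. Those above 0 were Ly6c2 and Cd68 (0.02). Among those below 0, Adgre1, which encodes F4/80, was at 27.8 ± 3.64 CPM in MUT and 40.1 ± 4.92 CPM in WT. Lyz2, lysozyme, also below 0, was at 154 ± 71.0 CPM in MUT and 241 ± 90.8 CPM in WT. Neutrophil markers summed to 196 to 443 CPM in MUT and 426 to 950.3 CPM in WT, with 4 of 8 tested markers below 0 and 0 called. The marker of this list with the highest mean level was Camp, a granule peptide gene. Camp was at 139 ± 47.7 CPM in MUT and 386 ± 129 CPM in WT (-1.47, SE 0.27, adjusted p = 0.115). Ltf, lactoferrin, went the other way, at 13.5 ± 4.43 CPM in MUT and 4.82 ± 3.67 CPM in WT (1.47, SE 0.39, adjusted p = 0.259). Megakaryocyte markers summed to 2.81 to 5.10 CPM in MUT and 5.28 to 6.16 CPM in WT. Of the 4 markers 2 were tested and 1 was called, against 0.0694% of all tested genes. The called marker was Itga2b, integrin alpha 2b, at 0.670 ± 0.240 CPM in MUT and 2.48 ± 0.448 CPM in WT (-1.89, SE 0.30, adjusted p = 0.0427). Gp9 of the same list was at 3.49 ± 0.843 CPM in MUT and 3.10 ± 0.103 CPM in WT. Erythroid markers summed to 8.42 to 35.2 CPM in MUT and 2.96 to 32.8 CPM in WT, and all 4 tested were above 0 with a median of 0.80 and 0 called. Car1, carbonic anhydrase 1, was at 1.3 to 3.84 CPM in MUT and 0 to 0.831 CPM in WT (adjusted p = 0.176). Mast cell and basophil markers summed to 9.15 to 17.9 CPM in MUT and 8.69 to 20.6 CPM in WT, with 1 of 2 tested markers below 0, Cpa3, at 1.6 ± 0.498 CPM in MUT and 4.63 ± 3.30 CPM in WT (-1.54, SE 0.42, adjusted p = 0.259). The other, Mcpt8, was above 0, at 11.0 ± 2.75 CPM in MUT and 8.12 ± 2.26 CPM in WT (0.43, SE 0.22, adjusted p = 0.537). The part of any of these markers in the Ctsh difference was not tested. B cell markers reached 42.8 to 63.6 CPM in MUT and 48.3 to 69.3 CPM in WT, T and NK cell markers 102 to 194 CPM in MUT and 89.3 to 144 CPM in WT with Cd3g and Ncr1 at 0, dendritic cell markers 1.90 to 10.8 CPM in MUT and 1.34 to 4.04 CPM in WT, and stromal markers 3.64 to 8.95 CPM in MUT and 5.93 to 8.69 CPM in WT. Total counts also differed, at 20734088 ± 4170598 per mouse in MUT and 15160572 ± 2307737 in WT. All MUT mice but mouse 12 lay above every WT mouse, so depth and genotype cannot be fully told apart. With the log2 total as a covariate the log2 fold change of Ctsh was -0.84, and 0 genes were called in that fit. The part of depth in the Ctsh difference was not tested.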

How the data were processed

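The deposited table, made by the authors, holds estimated counts for 54347 genes in 18 libraries made by a 3'-end method derived from MARS-seq, per the labels' protocols. Tools listed in the submitters' processing notes are Salmon 1.3, bcl2fastq and FastQC, with GRCm38 as the build. The sources used here do not give the annotation release, the handling of molecular identifiers or the strand setting. Of the deposited estimated counts 11.35% were not whole. The first 18 characters of each ID were matched to GENCODE mouse release 21, which named 54094 IDs and left 253 under their ID.

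Counts were summed over both technical libraries of each mouse, then rounded, giving 11766467 to 25485899 counts per mouse (3825500 to 15071673 per library). A floor of 3 counts equals 0.118 to 0.255 CPM, counting error only. The mouse was the replicate. The labels do not say that litters or days were shared, and mouse numbers differ between groups, so no block was used. The fit used edgeR 4.0.16 (R 4.3.3) and its quasi-likelihood test on all 9 mice, after TMM scaling and filterByExpr at 10 counts. P-values were 2-sided and adjusted by Benjamini-Hochberg over 12973 genes, and a gene was called under 0.05. CPM values use TMM factors, fold changes are log2 of MUT over WT, and the biological coefficient of variation was 18.7%. The step was tested on simulated data.

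Members and lists were chosen with earlier results of these data known. Named were the members, the 2 genes of each list with the smallest p, and the 5 genes most like Ctsh. A gene that this rule names among the other hydrolases is not reported here. Alternatives were RLE factors, DESeq2 1.42.0, limma-voom (limma 3.58.1), no filter, a mean of at least 10 CPM, a total-count covariate, either technical library alone, calling at 0.1, and dropping each mouse in turn. Leaving out the first library of MUT mouse 7 was added after the data had been seen.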

Additional observations from a re-analysis of the deposited data

Results flagged for a closer look

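Dixon's test was applied to the mice of each group for 30 genes, 60 groups of values, and picked out 3, as many as the 1 in 20 that chance gives. Ctss in MUT mouse 7 was at 22.3 CPM, while the other MUT mice lay between 5.87 and 8.75 CPM. H2-DMa in WT mouse 1 was at 106 CPM, while the other WT mice lay between 159 and 168 CPM. Tnrc18, one of the genes most like Ctsh, was at 41.9 CPM in WT mouse 3, while the other WT mice lay between 52.0 and 53.6 CPM.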

How the results depend on the processing

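The log2 fold change of Ctsh stayed below 0 in all 18 alternatives, between -0.88 without MUT mouse 6 and -0.72 without WT mouse 4. That of Ctsb ranged from -0.37 to -0.21, of Ctsd from -0.30 to -0.19 and of Ctsl from 0.18 to 0.51. Ctsa, Ctsc and Ctsz, all near 0, changed sign in some alternatives, as did Ctss, which was at 0.20 without WT mouse 4 and -1.31 with the total-count covariate. The lysosomal lists held 0 called genes in 18 of 18 alternatives.

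The number of called genes, 9, was the same with RLE factors and with limma-voom and 10 at a threshold of 0.1. It changed in the other settings, and the cause was not tested: there were 21 with no filter, 0 with a mean of at least 10 CPM, 0 with the covariate, 0 in first and 3 in second technical libraries, 86 with DESeq2, and 0 without the first library of MUT mouse 7. Leaving out 1 mouse gave 0 to 7: 0 without MUT mouse 7, 8, 10 or 12 or WT mouse 3 or 4, 2 without WT mouse 1, 4 without WT mouse 2 and 7 without MUT mouse 6. At a threshold of 0.05 Ctsh was called in 5 of 18 alternatives, RLE factors, no filter, limma-voom, DESeq2 and without MUT mouse 6. No paired analysis was possible because the groups share no mouse number.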

Other observations

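MUT mouse 7 differed between its own libraries for several cathepsins. The first library had 28.9 CPM of Ctsl, 37.3 CPM of Ctsc, 143 CPM of Ctsd and 77.7 CPM of Ctsz, and the second had 15.7, 26.9, 186 and 107 CPM of the same genes in the same order. Ctss was at 22.4 and 22.0 CPM and Ctsh at 85.6 and 95.5 CPM in these libraries. Across the tested genes 8 of the 18 libraries correlated best with the other library of their own mouse. The best match lay in the same group for 16 libraries, these 8 included, and had the same library number for 7. All correlations between libraries lay between 0.96 and 0.989.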
